A study of Oreochromis niloticus with 9 samples.

Results

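Liver RNA of GIFT, a farmed strain of Nile tilapia (Oreochromis niloticus), was compared between juveniles fed 0.8% apple peel powder (APP) and controls. The comparison takes 6 of the 9 liver libraries of the series: the 3 libraries of the high-dose group, APE_H1 to APE_H3, in whose names APP is written APE, and the 3 libraries of the control group, C1 to C3. APE_H fish received the basal diet with 0.8% APP for 8 weeks, and C fish received the basal diet with 0% APP for the same time. As the study lists the diets, APP took the place of cellulose, so the APE_H diet also held less cellulose. The remaining 3 libraries, APE_A1 to APE_A3, came from fish on 0.2% APP. Each library held pooled RNA from several fish of a single tank, so the tank pool was the replicate, with n = 3 per group. The deposited values are FPKM, the fragments assigned to a locus relative to its transcript length and to the size of the library, for 37283 loci of a merged assembly. Of these, 18475 reached an FPKM of 1 in 3 or more of the 6 libraries and were tested, and 9129 of the tested loci carried a gene symbol. Fold changes are differences of group means of log2(FPKM + 1), APE_H minus C, which understate the change of low genes, and they were tested with limma.

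The liver of a teleost takes up fat from circulating lipoproteins, makes and exports cholesterol and fatty acids, and secretes most of the proteins of the plasma, which are folded in the endoplasmic reticulum (ER). Its hepatocytes lie beside resident macrophages and blood cells, and in tilapia exocrine pancreas is embedded in the same organ. Transcripts of these other cells are therefore part of a liver library, and the cell types were followed by lists of marker genes.

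Library APE_H3 stood apart from the other 5. Across the tested genes, its log2 values correlated with those of the other libraries at r = 0.408 to 0.575 (5 pairs), and the 10 pairs among the others had r = 0.701 to 0.753. APE_H1 and APE_H2 correlated with each other at r = 0.715 and with the C libraries at 0.701 to 0.746, so that they resembled each other about as much as they resembled C. The summed FPKM of a library was 1226503 in APE_H3 and 1941494 to 2631532 in the other 5. FPKM values carry no counts, so no depth could be given for any locus. The study lists mapped reads per library, and in these APE_H3 lay within the range of the other 5.

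The marker lists showed where APE_H3 differed. The mean of log2(FPKM + 1) over 31 tested Hepatocyte markers (of 34 in the table) was 5.25 in APE_H3 and 8.85 to 9.74 in the other 8 libraries of the series, and APE_H3 was the lowest of the 9 libraries for 29 of the 31 genes. Their summed FPKM was 5820 in APE_H3, 93018 to 204927 in APE_H1 and APE_H2, and 99110 to 159691 in C. All 13 Exocrine pancreas markers were lowest in APE_H3, with a mean of 4.51 against 6.46 to 9.69 elsewhere. Markers of red cells and thrombocytes ran the other way: all 14 tested Erythroid markers were highest in APE_H3, with a mean of 6.62 against 2.38 to 4.42, and 7 of 10 Thrombocyte markers were highest there. The transcript of alas2, which makes the haem of red cells, had FPKM of 59.3, 80.0 and 146 in C, 52.1 in APE_H1, 122 in APE_H2 and 915 in APE_H3. The list of connective tissue markers was also high in APE_H3, with a mean of 4.82 against 2.2 to 3.29, 9 of 14 tested markers highest there, and a summed FPKM of 1131 against 74.7 to 174.2 in C. The Lymphocyte mean in APE_H3 (2.99) was slightly above the range of the other 8 libraries (1.233 to 2.899), with 4 of 15 markers highest and 0 lowest there. The Myeloid mean in APE_H3 (4.85) lay within the range of the other 8 libraries (4.56 to 5.62), with 9 of 23 markers highest and 5 lowest there. Of 9 tested Endothelium markers, 8 were lowest in APE_H3. Of the tested Hepatocyte, Exocrine pancreas and Erythroid markers, none was listed at 0 in APE_H3. In pooled tissue, fewer hepatocytes and less RNA per hepatocyte cannot be told apart. In APE_H1 and APE_H2 the same 3 lists lay within or close to the C range: Hepatocyte 9.66 and 8.85 against 9.14 to 9.72, Exocrine pancreas 9.28 and 8.79 against 8.33 to 9.5, and Erythroid 2.90 and 4.24 against 3.16 to 4.42. Results are therefore given with and without APE_H3, and genes on which APE_H1 and APE_H2 agreed are described in preference. The fit without APE_H3 rests on 2 high-dose libraries.

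**Figure D1:**
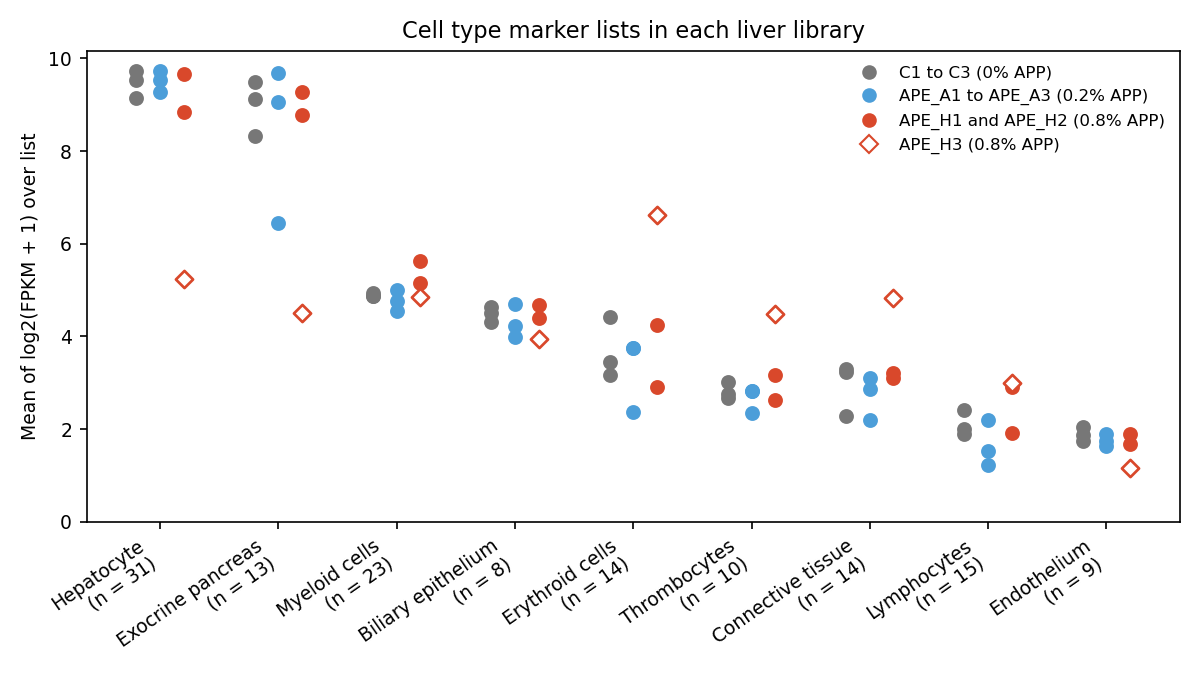
Mean of log2(FPKM + 1) over the tested genes of each marker list with at least 8 of them (y axis), 1 point per library, for C, APE_A and APE_H. APE_H3 (open diamond) lies at 5.25 for the Hepatocyte list, below the range of 8.85 to 9.74 of the other libraries, and at 6.62 for the Erythroid list, above their range of 2.38 to 4.42.

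Differentially expressed (DE) genes were those whose limma p stayed under 0.05 after Benjamini-Hochberg adjustment and whose means differed by 1 or more on the log2 scale. In the fit with all libraries, 30 of 18475 genes were DE (0.162%), 15 upregulated and 15 downregulated. Without APE_H3 there were 51 (0.276%), 33 upregulated and 18 downregulated, and 25 genes were DE in both fits. The count was 60 without APE_H1 and 16 without C2. At an unadjusted p under 0.05, 634 genes were higher (3.43%) and 854 lower (4.62%) in APE_H, and without APE_H3 these were 710 (3.84%) and 806 (4.36%).

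Almost none of the DE genes could be tied to a known gene. In each fit, 1 DE gene carried a symbol, and 28 of the 30 and 48 of the 51 had a locus number as their only identifier. Most were absent from 1 group in the table. All 15 upregulated genes of the full fit were listed at 0 in every C library, and 13 of them were also listed at 0 in every APE_A library. Of the 15 downregulated genes, 11 were listed at 0 in all 3 APE_H libraries, 8 of them also in all 3 APE_A libraries. A locus at 0 in all of C or all of APE_H passed the filter only if all 3 libraries of the other group reached 1 FPKM. Its full separation was therefore fixed by the filter and is a description only. The filter counted APE_H3 also for the fit without it. Locus XLOC_002247, for example, was listed at 0 in all C and APE_A libraries and had FPKM of 2689, 2187 and 247 in APE_H1, APE_H2 and APE_H3. Locus XLOC_036321 was the opposite case, with 3395, 710 and 439 in C and 0 in the other 6 libraries. Both loci were chosen for mention after their values were seen. Both are short, at 3580436 to 3580815 of scaffold GL831136.1 and 73994 to 74148 of scaffold GL831884.1. FPKM is relative to length, so a small number of fragments can give a high value at such a locus. Some neighbouring DE loci lay 78 to 146 bases apart and were counted separately. A value of 0 in such a table may also be a failed estimate. At 1133 of the tested genes, 1 or more of the 6 libraries had a 0 where the remaining 8 libraries had a median of 10 FPKM or more, and no fold is given against a group at 0.

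The DE gene with a symbol was c8a, which encodes the alpha chain of complement component C8, a liver-made part of the membrane attack complex. Locus XLOC_022702 lies at 1078799 to 1088859 of scaffold GL831264.1, as listed in the table. Its FPKM was 309, 281 and 180 in C and 279, 250 and 346 in APE_A. APE_H1 and APE_H2 were listed at 0, and APE_H3 had 7.79. The 3 high-dose libraries thus lay below the other 6, and adjusted p (limma) was 0.0303 with all libraries and 0.000306 without APE_H3. In the fit without APE_H3 both high-dose values were 0, so they added no spread to it, and either 0 may be a failed estimate. Leaving out any other library raised adjusted p to between 0.0568 and 0.136, so the call was lost without any 1 of those 8. No gene with a symbol and without a 0 passed: the lowest adjusted p among such genes was 0.122 with all libraries and 0.0752 (ern1) without APE_H3.

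Agreement between libraries was therefore described by overlap. All 3 APE_H libraries lay above all 3 C libraries for 1162 genes (6.29%) and below for 1337 (7.24%). APE_H1 and APE_H2 alone both lay above C for 2009 genes (10.9%) and below for 2257 (12.2%). An exact permutation test of 3 libraries against 3 cannot give a two-sided p under 0.1 for any of them. Among loci with a symbol, with no 0 in these 6 libraries and with a mean FPKM of at least 5 over APE_H1, APE_H2 and C, 265 lay above and 350 below C in all 3 APE_H libraries. The 12 of each with the largest difference that both APE_H1 and APE_H2 reached are described below. They were selected for their separation, so their values are a description.

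The clearest higher gene was fkbp5, a co-chaperone of Hsp90 that binds the glucocorticoid receptor and is induced by glucocorticoids in mammals. Its FPKM was 21.4, 49.4 and 4.40 in C and 126, 177 and 120 in APE_H, a log2 fold change of 2.94 (SE 0.76, adjusted p = 0.372). Each high-dose pool was more than 2 times the highest control, the APE_A pools (5.78 to 10.1) lay at the low end of C, and APE_H3 lay close to the other high-dose pools. Lipoprotein lipase (lpl), the enzyme that frees fatty acids from circulating triglyceride, had FPKM of 19.1, 23.6 and 11.1 in C and 99.2, 76.8 and 42.7 in APE_H (log2 fold change 1.95, SE 0.59, adjusted p = 0.443). The mean of APE_H1 and APE_H2 was 4.91 times that of C, and 1 APE_A pool, at 43.1, reached the level of APE_H3. The gene hamp encodes hepcidin, the liver hormone that limits iron export from cells. It stood at 4.25, 6.76 and 6.32 in C and at 121, 15.6 and 11.6 in APE_H, so the size of its difference came mainly from APE_H1.

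Another 9 higher genes complete the 12. The glucose transporter gene glut1 had FPKM of 5.37, 3.92 and 2.90 in C and 9.49, 9.64 and 14.9 in APE_H, and hif1al, a hypoxia-inducible factor alpha gene, had 69.9, 60.9 and 34 against 116, 113 and 162, with APE_A2 listed at 0. The RNA helicase gene ddx5 was close to 70 in both APE_H1 (71.3) and APE_H2 (70.5), with 56.0 in APE_H3 and 21.5 to 35 in C. A granzyme gene, which encodes a protease of cytotoxic lymphocytes, had 4.97, 21.8 and 46.5 in APE_H against 1.38 to 1.86 in C. The Lymphocyte marker list was above C in APE_H2 and APE_H3 but within C in APE_H1. Its mean log2 level was 1.92, 2.90 and 2.99 in APE_H1, APE_H2 and APE_H3 and 1.90 to 2.41 in C. Of its 15 tested markers, 1 was above C in both APE_H1 and APE_H2 (6.67%, against 10.9% of all genes). The part of these cells in the granzyme values was not tested. The 5 others were tox, RGS3, nt5dc2, rpz5 and a gene with only a provisional clone name, of which rpz5 was also high in 2 APE_A pools (53 and 61.7, against 7.55 to 29.9 in APE_H).

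Among lower genes, angptl4 encodes a secreted inhibitor of lipoprotein lipase. Its FPKM was 27.4, 29.2 and 43.0 in C and 5.61, 10.3 and 2.62 in APE_H (log2 fold change -2.38, SE 0.61, adjusted p = 0.372). APE_A covered both groups, from 7.07 to 32.1. The fatty acid-binding protein gene fabp7a stood at 201, 313 and 147 in C and at 56.2, 38.0 and 1.44 in APE_H, with a log2 fold change of -3.59 with all libraries and -2.16 without APE_H3. In APE_H3, where the Hepatocyte list was low, fabp7a, dgke and zgc:162608 had FPKM of 1.44, 1.21 and 5.47, and APE_H1 and APE_H2 were below every control as well. The diacylglycerol kinase gene dgke had 124, 141 and 68.3 in C and 41.4 and 33.4 in APE_H1 and APE_H2, and zgc:162608 had 676, 661 and 404 in C and 85.4 and 140 there.

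The lowest adjusted p without APE_H3 among these 24 genes belonged to zgc:56576. Its FPKM was 17.4, 12.0 and 14.1 in C, 14.6 to 18.1 in APE_A and 3.58, 4.28 and 5.19 in APE_H, with a log2 fold change of -1.53 (SE 0.27, adjusted p = 0.168), and of -1.64 (SE 0.25, adjusted p = 0.0994) without APE_H3. The 3 high-dose pools lay close together, and the 6 pools of the other diets also did. The nuclear receptor corepressor gene ncor1 had 13.1, 11.8 and 6.0 in C and 2.31, 3.20 and 3.92 in APE_H, and cyp27b1, the hydroxylase that activates vitamin D, had 69.9, 20.5 and 8.97 against 7.93, 3.91 and 0.39, where C3 almost met APE_H1. The others were hsp90b1, described with the ER genes, baiap2a, tti2, the small RNA gene SCARNA13 (listed at 0 in APE_A1) and a locus that merges scdb and trmt2b. At that locus C3 alone was high (220, against 2.77 and 1.43 in C1 and C2), so its place among the lowest genes depended on 1 control pool. All APE_H pools (0.55, 0.21 and 0.87) were under 1 FPKM there, so the locus passed the filter only through C, which fixed its separation.

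**Figure D2:**
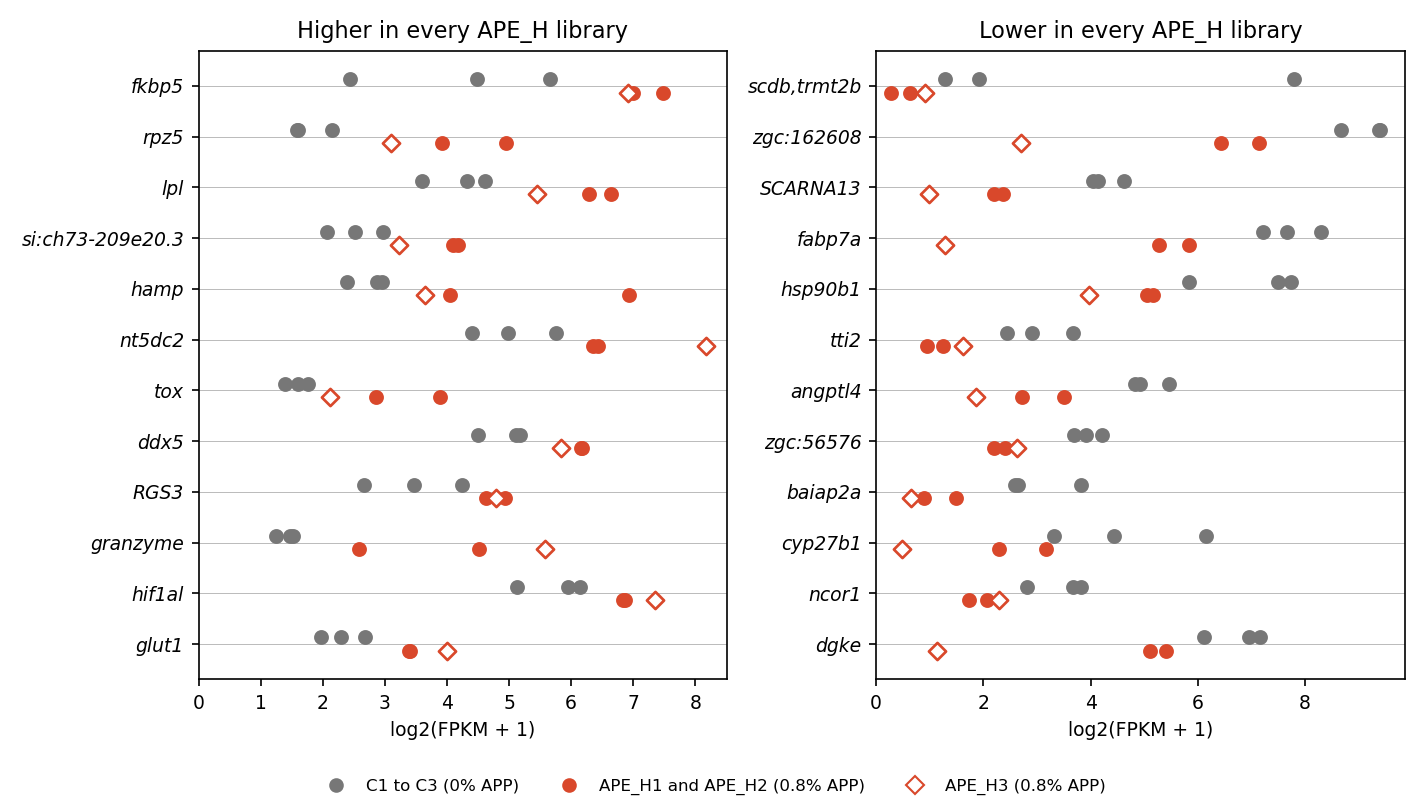
Level in log2(FPKM + 1) (x axis) of the 12 higher (left) and 12 lower (right) genes with a symbol that separated the groups most, 1 point per C and APE_H library, ordered from top by the smaller of the differences of APE_H1 and APE_H2 from the C mean. The angptl4 points of APE_H (FPKM 2.62 to 10.3) lie left of all C points (27.4 to 43.0), and the hamp difference is carried mainly by APE_H1 (121 against 4.25 to 6.76 in C).

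Sets of genes were then described by 29 lists of liver functions, each by the number of its members on which APE_H1 and APE_H2 both lay outside C, read against 10.9% above and 12.2% below over all genes tested, and by its median fold change (all genes: -0.03 with all libraries, 0.00 without APE_H3). With all libraries, the lowest medians belonged to Bile acid synthesis and export (-1.29), Complement (-1.27), Coagulation (-1.25), Acute phase and iron proteins (-1.24), Amino acid breakdown and urea cycle (-1.17), Apolipoproteins and lipases (-0.96) and Xenobiotic metabolism (-0.94). Without APE_H3 these were -0.40, -0.03, 0.28, -0.12, -0.04, 0.11 and 0.14, so that a difference of this size remained in none of them. The Hepatocyte list itself had a median of -1.40 with all libraries and -0.01 without APE_H3. It shares genes with the Complement, Coagulation, Acute phase, Amino acid and Apolipoprotein lists, so its shift is not separate from theirs. The plot of list medians shows the same shift for most metabolic lists.

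**Figure D3:**
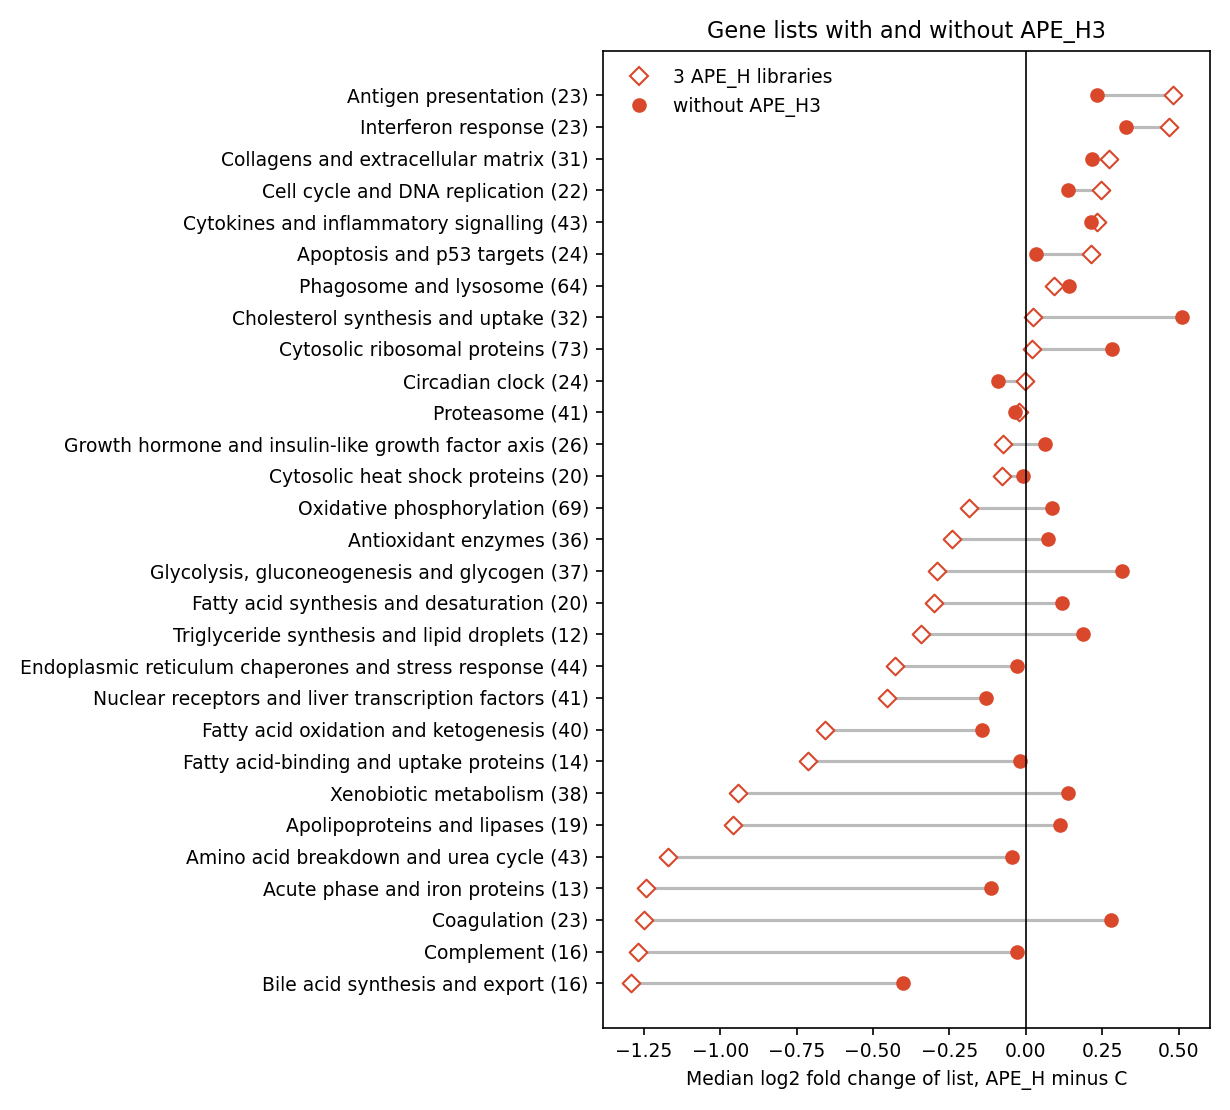
Median log2 fold change, APE_H minus C (x axis), of each list of liver functions with all 3 APE_H libraries (open diamonds) and without APE_H3 (filled circles), with the number of tested members in brackets. The Coagulation list moves from -1.25 to 0.28 and Cholesterol synthesis and uptake from 0.02 to 0.51 when APE_H3 is left out, and the Cytokines list barely moves (0.23 and 0.21).

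Cholesterol synthesis and uptake had the largest share of members above C among the 29 lists. Of 32 tested members (33 in the table), 8 were above C in both APE_H1 and APE_H2 (25%, against 10.9% of all genes) and 0 were below. Without APE_H3, 26 of 32 had a positive fold change, against 9280 of all 18475 genes tested. None was DE. At an unadjusted p under 0.05 without APE_H3, 5 were higher and 0 lower, against 3.84% and 4.36% of all genes. The enzyme that condenses acetyl groups to HMG-CoA, hmgcs1, had FPKM of 9.65, 11.8 and 7.51 in C, 10.8 to 15.8 in APE_A and 60.5, 25.4 and 10.1 in APE_H (log2 fold change 1.94, SE 0.42, adjusted p = 0.299 without APE_H3). Squalene epoxidase (sqlea) stood at 8.31, 11.2 and 4.16 in C and at 57.5, 20.4 and 3.35 in APE_H. APE_H1 was the highest library for both, APE_H2 was next and APE_H3 lay within or below C.

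The transcription factor gene srebf2, whose protein switches on this pathway when sterols are low, had 2.96, 3.74 and 1.99 in C and 13.4, 6.37 and 3.81 in APE_H, and fdps, the synthase of farnesyl diphosphate, had 2.12, 2.36 and 2.24 against 12.3, 5.03 and 6.85. For these genes APE_H3 was above the controls too, by a small margin for srebf2 and clearly for fdps (log2 fold change 1.40 with all libraries and 1.47 without APE_H3). Further members above C, named after their values were seen, included the synthesis genes fdft1 and lss and the sterol sensor partner insig1. For lss, APE_H1 was again the highest of the 6 libraries (21.1) and APE_H2 (8.23) was only slightly above the highest control (8.0). The mean log2 level of the list was 4.95 in APE_H1, 4.10 in APE_H2, 2.64 in APE_H3 and 3.56 to 4.25 in C, so over the whole list APE_H1 alone exceeded the controls.

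Genes of fatty acid handling were described list by list. Of 40 tested members of Fatty acid oxidation and ketogenesis, 4 were below C in APE_H1 and APE_H2 (10%) and 1 was above (2.5%), which is no more than the background. Without APE_H3, 12 of the 40 had a positive fold change, against 9280 of all 18475 genes tested, so more members leaned lower than higher. The mean log2 level of the list was 4.906 in APE_H1, 4.427 in APE_H2, 3.028 in APE_H3 and 4.585 to 5.022 in C. The mitochondrial carnitine palmitoyltransferase cpt2 had FPKM of 4.87, 4.66 and 4.29 in C, 3.31 to 5.65 in APE_A and 1.96, 1.65 and 1.05 in APE_H (log2 fold change -1.15, SE 0.25, adjusted p = 0.316). Its partner on the outer membrane, cpt1b, had 1.45, 3.26 and 3.18 in C and 1.28, 1.31 and 0.60 in APE_H, and the peroxisomal fatty acid transporter abcd3b had 84.1, 116 and 57.7 against 46.3, 44.2 and 11.9. The acyl-CoA synthetase acsl4a was higher, with 6.59, 4.58 and 3.40 against 1.92 to 2.83 in C, but APE_A was at 4.41 to 5.93 as well.

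Among 20 members of Fatty acid synthesis and desaturation, 1 was above (5%) and 2 were below C (10%), against 10.9% and 12.2% of all genes. The acetyl-CoA carboxylase gene acacb, whose product malonyl-CoA restrains entry of fatty acids into mitochondria, stood at 4.94, 4.64 and 3.66 in C and at 2.27, 2.0 and 0.87 in APE_H. A pair of neighbouring loci carry the symbol fads2, a fatty acyl desaturase. XLOC_004889 had 73.8, 85.1 and 39.1 in C and 142, 107 and 7.33 in APE_H, and XLOC_004890 had 164, 181 and 136 against 444, 77.6 and 22.2, so the latter overlapped the controls and the former turned direction with APE_H3 (log2 fold change -0.34 with it and 0.96 without). Reads may have been split between these loci, and their values are uncertain. The counts above and below C were 1 and 1 of 19 (5.26% each) for Apolipoproteins and lipases, whose members lpl and angptl4 are given above. They were 1 and 2 of 14 (7.14% and 14.3%) for Fatty acid-binding and uptake proteins. For Triglyceride synthesis and lipid droplets they were 2 and 2 of 12 (16.7% each).

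**Figure D4:**
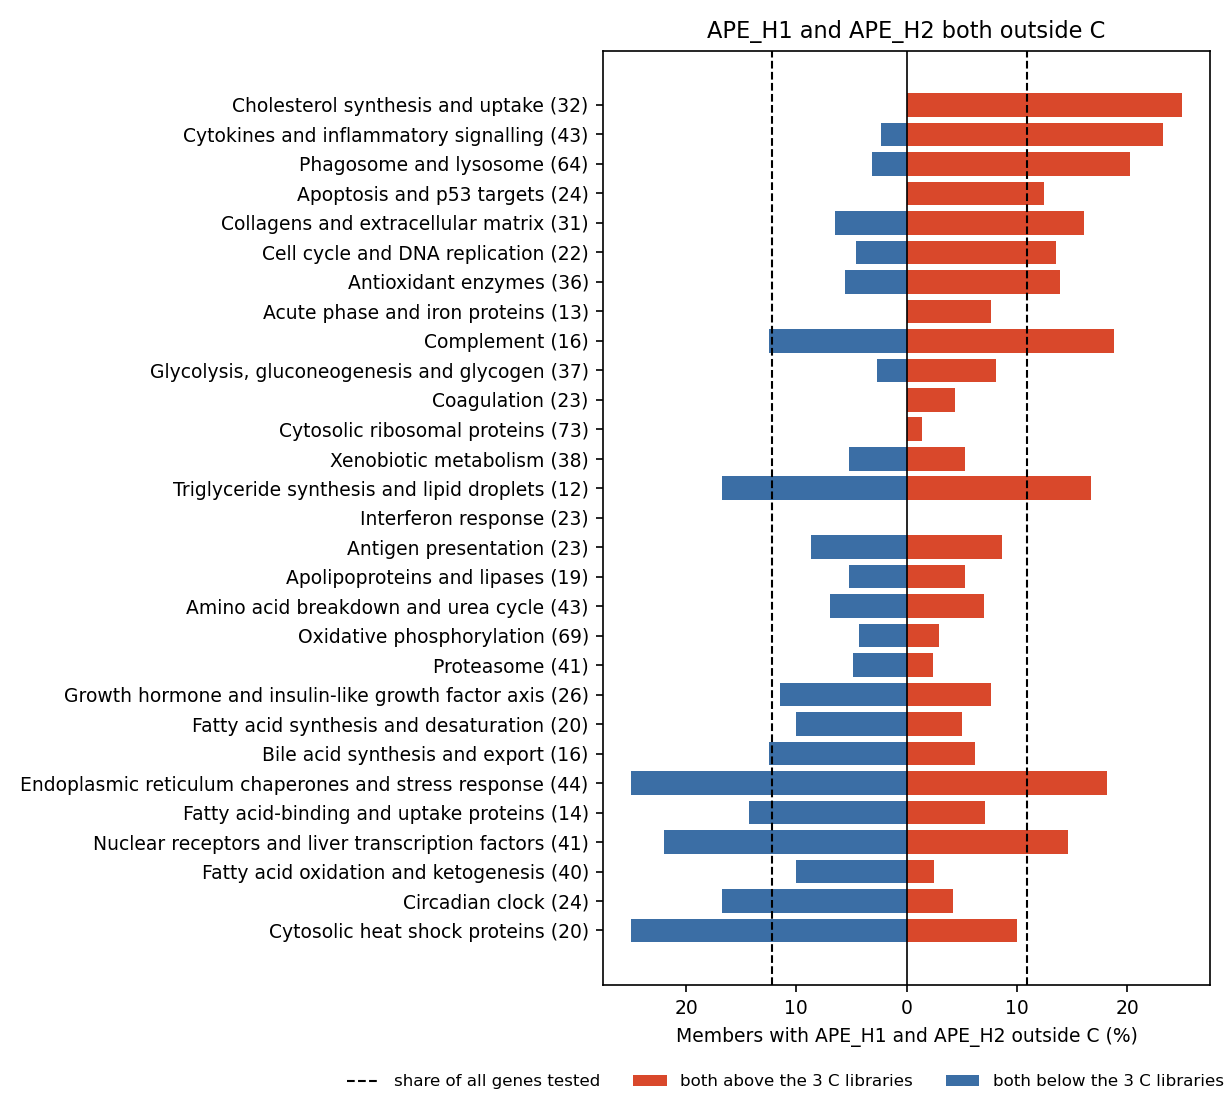
Share of the tested members of each list (x axis, percent, member numbers in brackets) for which APE_H1 and APE_H2 both lay above (red, to the right) or below (blue, to the left) all 3 C libraries. Dashed lines mark the shares over all genes, 10.9% and 12.2%. Cholesterol synthesis and uptake reaches 25% above with none below, and Endoplasmic reticulum chaperones and stress response exceeds both lines (18.2% above, 25% below).

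The ER list held genes that moved apart. Of 44 tested members (51 in the table), 8 were above C in APE_H1 and APE_H2 (18.2%, against 10.9% of all genes). Another 11 were below (25%, against 12.2%), and all 11 were also below C in APE_H3. Over all genes tested, 1337 of the 2257 below C in APE_H1 and APE_H2 were also below in APE_H3. The mean log2 level of the list was 4.375 in APE_H1, 4.259 in APE_H2, 3.367 in APE_H3 and 4.183 to 4.59 in C. APE_H3 was thus below the controls over the whole list. No member was DE. The ER form of Hsp90, hsp90b1, had FPKM of 212, 56.0 and 180 in C and 32.1, 35 and 14.7 in APE_H (log2 fold change -2.29, SE 0.74, adjusted p = 0.482), and the calcium-binding chaperone calr had 14.7, 9.19 and 25.8 against 4.72, 7.12 and 3.87. C2 was the lowest control for both, and pool APE_A1 (51.6 and 5.12) lay at or below C2, so the spread among pools of the other diets was wide.

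The other 9 below, named after their values were seen, were pdia4, pdia6, hyou1, dnajb11, canx, creld2, edem1, derl1 and ssr1. Pdia4 and pdia6 form disulfide bonds in new proteins, canx retains glycoproteins until they are folded, and edem1 and derl1 pass misfolded proteins on to degradation. The FPKM of pdia4 was 108, 45.4 and 104 in C and 33.3, 23.5 and 5.91 in APE_H. C2 was the lowest control for pdia4, hyou1, dnajb11, creld2, derl1, pdia6 and ssr1 as well, and for canx the margin between groups was small (15.7 to 17.0 in C, 13.8 and 13.5 in APE_H1 and APE_H2).

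The members above C included a stress sensor and transcription factors, with hspa13, ero1a and sel1l beside them. The sensor kinase ern1 (IRE1), which splices the transcript of xbp1 when unfolded proteins build up, had FPKM of 4.62, 3.93 and 3.32 in C, 5.16 to 6.77 in APE_A and 24.6, 14.8 and 3.72 in APE_H. Its log2 fold change was 2.03 (SE 0.28, adjusted p = 0.0752) without APE_H3, and 1.33 (SE 0.57, adjusted p = 0.612) with it. It did not pass either way, although APE_H1 and APE_H2 were both more than 3 times the highest control. The xbp1 transcript itself stood at 80.8, 92.8 and 93.1 in C, 101 to 152 in APE_A and 172, 142 and 48.4 in APE_H. The stress factor atf3 had 1.29, 1.28 and 1.78 in C and 2.75, 7.01 and 2.61 in APE_H, and hspa13 had 1.86, 2.35 and 2.30 against 4.10, 4.33 and 3.25. For ern1, xbp1 and hspa13 the APE_A pools (2.40 to 5.17 for hspa13) were also above every control. The remaining 4, named after their values were seen, were atf4a, atf4b, ero1a and sel1l.

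**Figure D5:**
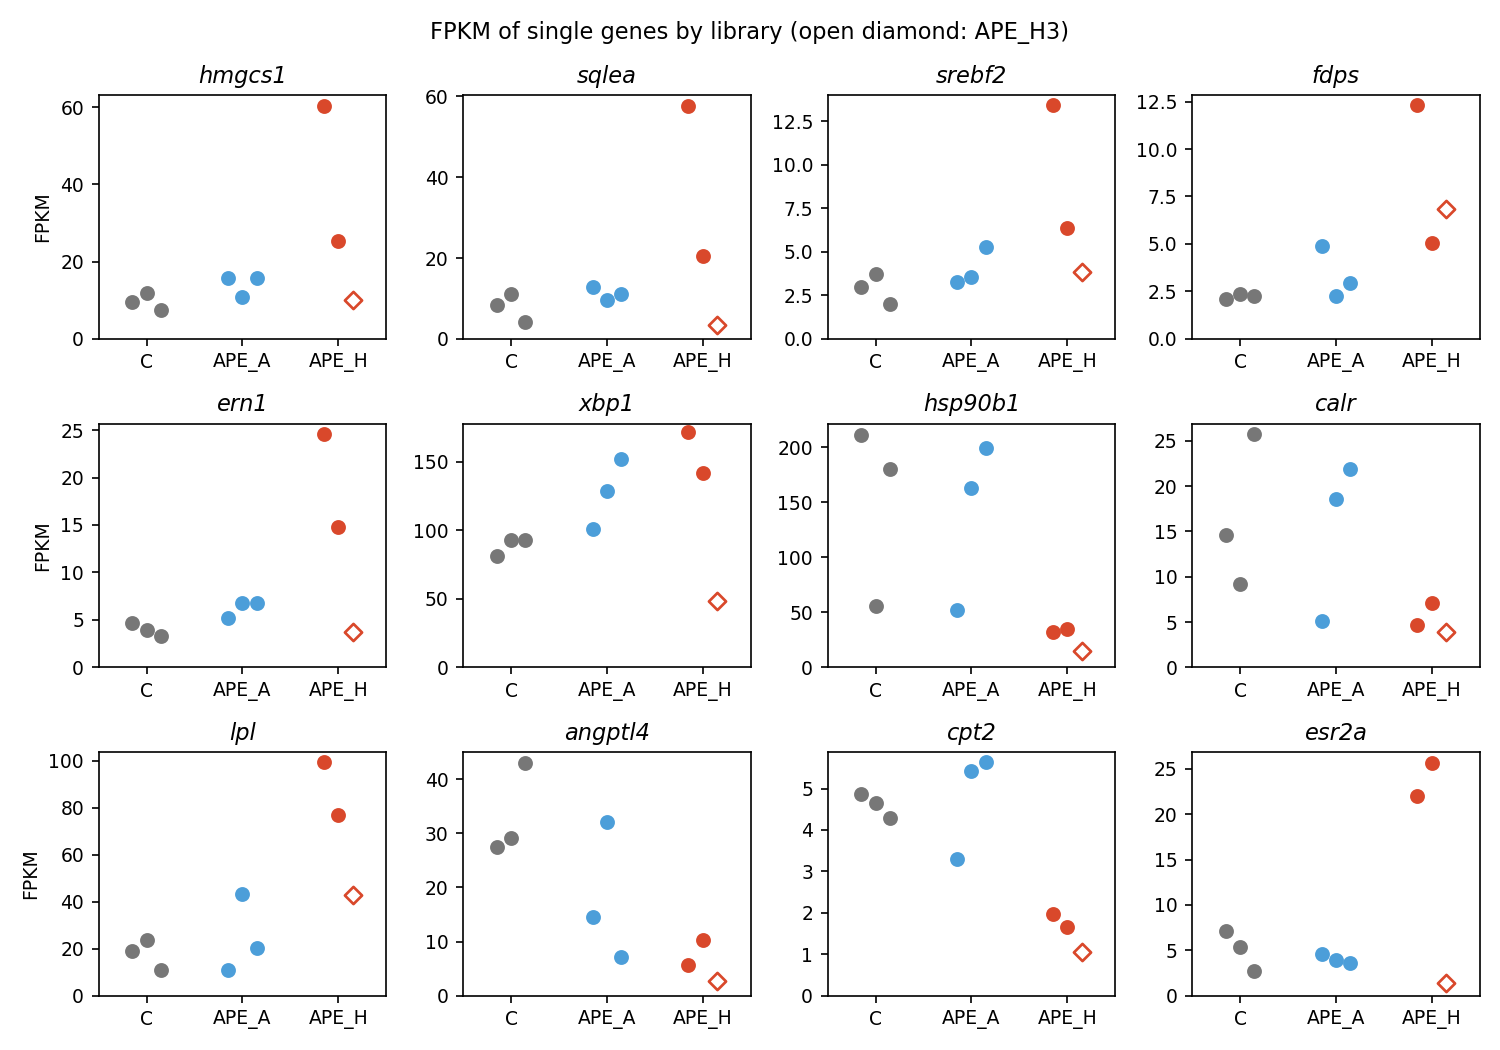
FPKM (y axis, from 0) of 12 genes in each library of C, APE_A and APE_H, with APE_H3 as an open diamond. In APE_H1 and APE_H2 ern1 (24.6 and 14.8) and esr2a (22.1 and 25.6) lie above all other libraries and APE_H3 lies within or below C, and cpt2 is lower in all 3 APE_H libraries (1.05 to 1.96) than in the other 6.

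Among defence genes, members of the cytokine and lysosome lists were above C more often than below. Of 43 tested members of Cytokines and inflammatory signalling, 10 were above C in APE_H1 and APE_H2 (23.3%, against 10.9% of all genes) and 1 was below. Of 64 members of Phagosome and lysosome, 13 were above (20.3%) and 2 below. No member of either list was DE. The mean log2 level of the Cytokines list was 2.83 in APE_H1, 3.56 in APE_H2, 3.35 in APE_H3 and 2.79 to 3.05 in C. That of the Phagosome list was 3.56, 3.85 and 3.60 against 3.52 to 3.58 in C. Over each whole list, APE_H1 thus lay within the controls. The transcription factor gene stat3, which carries signals of the interleukin 6 family, had FPKM of 13.1, 10.1 and 16.4 in C and 28.2, 29.8 and 23.3 in APE_H (log2 fold change 1.00, SE 0.34, adjusted p = 0.515). The ubiquitin-editing enzyme tnfaip3, which restrains NF-kB, had 1.32, 1.08 and 1.22 against 2.02, 5.70 and 2.78. The pattern receptor tlr2 stood at 0.58, 0.22 and 0.28 in C and at 1.08, 2.44 and 10.4 in APE_H. All controls were under 1 FPKM, so tlr2 passed the filter only through APE_H. Its place among the members above C was fixed by the filter. The chemokine cxcl12a had 6.10, 13.8 and 4.50 against 18.6, 24.8 and 12.4, so APE_H3 overlapped the controls. Of the genes for NF-kB subunits, NFKB1 (2.25 to 2.97 in C, 2.46 to 4.02 in APE_H) and nfkb2 (5.91 to 17.4 in C, 12.1 to 55.4 in APE_H) overlapped.

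In the lysosome, the galactosidase glb1 had FPKM of 1.52, 2.31 and 1.94 in C and 3.41, 5.58 and 3.38 in APE_H, and the proton pump subunit ATP6V1C1 had 6.06, 6.86 and 5.92 against 8.95, 14.3 and 11.7. The protease cathepsin H (ctsh) had 0.90, 1.05 and 2.06 in C and 3.12, 3.34 and 40.8 in APE_H, and cathepsin B (ctsba) had 48.9 to 74.1 in C, 86.2 and 195 in APE_H1 and APE_H2 and 63.4 in APE_H3. In APE_H1 and APE_H2, 6 of 23 tested Myeloid cell markers were above C (26.1%, against 10.9% of all genes) and 0 below (against 12.2%). The mean log2 level of the list was 5.15 in APE_H1, 5.62 in APE_H2, 4.85 in APE_H3 and 4.87 to 4.93 in C. In APE_H3 the list was thus not above the controls, while glb1, ATP6V1C1 and ctsh were above C there and ctsba was not. The summed FPKM of these markers was 11626 and 30266 in APE_H1 and APE_H2 and 10955 to 16860 in C, none was listed at 0, and their part in the lysosome and cytokine values was not tested. The markers cyba and cybb, subunits of the phagocyte oxidase, are members of both the Myeloid and the lysosome list. Interferon response had 0 of 23 members above or below C, although APE_H2 (mean log2 level 4.76) and C3 (4.98) were the highest of the 6 libraries. Antigen presentation had 2 above and 2 below of 23 (8.7% each), against 10.9% above and 12.2% below over all genes. Complement had 3 above (18.8%) and 2 below (12.5%) of 16, and Coagulation 1 above (4.35%) and 0 below of 23.

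Among 41 tested nuclear receptors and liver transcription factors, 9 were below C in APE_H1 and APE_H2 (22%, against 12.2% of all genes) and 6 above (14.6%, against 10.9%). The estrogen receptor gene esr2a had FPKM of 7.12, 5.37 and 2.74 in C, 3.61 to 4.57 in APE_A, 22.1 in APE_H1, 25.6 in APE_H2 and 1.36 in APE_H3 (log2 fold change 2.10, SE 0.35, adjusted p = 0.14 without APE_H3). The androgen receptor gene ar had 6.73, 5.96 and 5.56 in C and 4.47, 2.56 and 0.18 in APE_H. The receptor gene nr5a2, which drives bile acid and cholesterol genes in mammals, had 5.33, 4.44 and 4.51 against 3.22, 3.0 and 0.23. The prox1 copies differed, with prox1b at 1.71 to 2.25 in C and 3.14, 3.83 and 0.71 in APE_H, and prox1a, named after its values were seen, at 4.16 to 5.54 in C and 3.78, 1.73 and 0.07 in APE_H. In APE_H3 each of these 5 genes was below all controls.

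Of 24 tested clock genes, 4 were below C (16.7%, against 12.2% of all genes) and 1 above (4.17%, against 10.9%), so the counts differed from the background by few genes. The period gene per2, a repressor of the clock, stood at 2.52, 2.04 and 3.19 in C, 1.77 to 3.23 in APE_A and 0.84, 0.94 and 0.58 in APE_H (log2 fold change -1.0, SE 0.24, adjusted p = 0.346). All 3 high-dose pools were under 1 FPKM, so per2 passed the filter only through C, which fixed its separation. The clock activators clockb (3.35 to 4.08 in C) and rorcb (3.69 to 5.07) were lower in APE_H1 (1.79 and 2.84) and APE_H2 (2.54 and 2.30) but not in APE_H3 (6.36 and 4.33). Of 20 cytosolic and mitochondrial heat shock genes, 5 were below (25%, against 12.2% of all genes) and 2 above (10%, against 10.9%). Of those above, dnajb1b (2.79 to 3.31 in C, 4.21 to 6.81 in APE_H) was higher in every high-dose pool. The mitochondrial chaperonin genes hspd1 (6.45 to 10.4 in C, 1.91 to 4.55 in APE_H) and hspe1 (32.1 to 44.1 in C, 3.01 to 28.3 in APE_H) and the Hsp90 co-chaperone fkbp4 (7.29 to 10.2 in C, 3.87 to 4.97 in APE_H) were lower in every high-dose pool.

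Bile acid synthesis and export had 1 of 16 members above (6.25%) and 2 below C (12.5%), against 10.9% and 12.2% of all genes. The canalicular exporter abcc2 had FPKM of 36, 121 and 49.5 in C and 251 and 214 in APE_H1 and APE_H2 but 8.52 in APE_H3. The partner genes abcg5 and abcg8, which export sterols into bile, were close to C in APE_H1 (5.08 and 6.77, with 4.80 to 6.61 and 6.99 to 9.67 in C) and low in APE_H2 (0.63 and 1.84) and APE_H3 (0.20 and 0.17). In Xenobiotic metabolism, 2 of 38 members were above and 2 below (5.26% each). One of the latter, the glutathione transferase gstt1a, was listed at 0 in APE_H1 and had 595 in APE_H2 and 42.6 in APE_H3, against 995 to 1483 in C.

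Of 65 cell division genes in the table, 22 passed the filter on low values. Of these, 3 were above C (13.6%) and 1 below (4.55%), against 10.9% and 12.2% of all genes. Thymidine kinase (tk1), an enzyme of the DNA precursor supply, had FPKM of 0.85, 0.71 and 0.38 in C and 2.01, 4.30 and 2.78 in APE_H (log2 fold change 1.26, SE 0.28, adjusted p = 0.316). All controls of tk1 were under 1 FPKM, so it passed the filter only through APE_H, which fixed its separation. The kinase gene cdk1 had 1.43 to 1.68 in C and 5.06, 2.96 and 1.64 in APE_H. The related kinase gene cdk2 was lower, at 4.66, 1.98 and 1.65 against 6.89 to 13.3. Of 24 Apoptosis and p53 genes, 3 were above (12.5%) and 0 below. Those above included the caspase inhibitor xiap (8.71 to 10.2 in C, 14.1, 20.0 and 41.1 in APE_H). In the Growth hormone and insulin-like growth factor axis, 2 of 26 members were above (7.69%) and 3 below (11.5%). The growth factor gene igf2, which the study names, overlapped between the groups (45.0, 13.2 and 3.91 in C, 4.45, 5.18 and 0.84 in APE_H).

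In the remaining lists the members above and below C were at or under the background or differed from it by few genes. Cytosolic ribosomal proteins had 1 above and 0 below of 73. Without APE_H3, 68 of the 73 had a positive fold change, against 9280 of all 18475 genes tested. The mean log2 level of this list was 11.16 in APE_H1 and 10.08 in APE_H2, against 10.08 to 10.57 in C. Oxidative phosphorylation had 2 above and 3 below of 69, Proteasome 1 and 2 of 41, Amino acid breakdown and urea cycle 3 and 3 of 43, Glycolysis, gluconeogenesis and glycogen 3 and 1 of 37, Acute phase and iron proteins 1 and 0 of 13, Antioxidant enzymes 5 and 2 of 36, and Collagens and extracellular matrix 5 and 2 of 31. Beside the last of these, the mean log2 level of the Connective tissue markers was 3.22, 3.09 and 4.82 in APE_H1, APE_H2 and APE_H3 and 2.29 to 3.29 in C, and their part in it was not tested. Lactate dehydrogenase (ldha) was the glycolysis gene with the lowest unadjusted p without APE_H3, with FPKM of 1.83, 2.04 and 1.60 in C and 5.71, 4.93 and 0.84 in APE_H.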

How the data were processed

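Paired-end poly(A) RNA-seq libraries of liver were made by the authors, who deposited FPKM values per locus. The methods of the study name TopHat for alignment and Cufflinks for differential expression. The processing notes of the submitters instead name HISAT2 2.0, StringTie 1.3.0 and Bowtie 0.12.2, so the tools behind the table are uncertain, and the genome build is not given in the sources used here for these scaffolds. Groups were taken from the labels. All FPKM columns were used. Loci that reached 1 FPKM in 3 or more of the 6 APE_H and C libraries were analysed as log2(FPKM + 1). A model in limma 3.58.1 (R 4.3.3), tested on simulated data, was fitted with a mean per group to all 9 libraries, or to 8 without APE_H3, with an intensity trend and Benjamini-Hochberg adjustment. No count model was used, and p values measure the spread between tank pools. Named genes were DE genes with a symbol, the 12 highest and 12 lowest separated genes, genes that the study names, and up to 4 members per list with the lowest unadjusted p without APE_H3. The comparison, lists and rules were chosen with earlier results of these data known. Lists were written from general knowledge and matched by symbol. Figures were drawn with matplotlib 3.10.9 in Python 3.11.15.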

Additional observations from a re-analysis of the deposited data

How the results depend on the processing

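The count of DE genes was 30 with all libraries and 51 without APE_H3. It was 19 and 150 without the filter on low values, and 33 without APE_H3 when an FPKM of at least 5 was required, which also leaves fewer genes to test: 701 genes (727 without APE_H3) then passed an unadjusted p of 0.05, against 1488 (1516), and 1240 against 2499 did not overlap. The causes of the other shifts were not tested. Leaving out 1 library gave 16 (without C2) to 60 (without APE_H1) DE genes with all libraries and 45 to 75 without APE_H3, 1016 to 3705 (without APE_H1) and 1237 to 2070 genes at an unadjusted p of 0.05, and 3540 to 6945 non-overlapping genes, which fewer libraries make more common. Pseudocounts of 0.1 and 0.01, median-ratio scaling, quantile normalization, a fit of APE_H and C alone, no trend, a robust prior, values of 0 treated as missing, and no fold change threshold kept both DE counts within 1.5 times. Replicate numbers are shared by the groups, but deviations of same-numbered libraries correlated at only -0.08 to 0.145, so the numbers were not taken as pairs. A replicate block gave 9 DE genes, and 10 without APE_H3. The call of c8a held in 6 of 20 alternatives, with adjusted p from 0.000306 to 0.416, and was lost under both other pseudocounts, without the filter, with APE_H and C alone, with the replicate block (adjusted p = 0.139) and with values of 0 missing. Without APE_H1, abcg5 passed (log2 fold change -2.27, adjusted p = 0.0202). Of 138 named genes, 9 changed sign without APE_H3 and 14 without APE_H1, none of them DE, and of the 29 list medians 15 and 13 moved by more than the spread between libraries.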
